A study of Mus musculus with 4 samples.

Results

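TLE3 signal was examined at 9 genes of the acyl-CoA synthetase and acyl-CoA thioesterase families: Acsl1, Acsl3, Acsl4, Acsl5, Acsl6, Acot1, Acot2, Acot4 and Acot11. A region belonged to a gene when the deposited annotation gave that gene as the nearest and placed the region's centre within 50 kb of a transcription start site. This gave 25 regions at 7 of the 9 genes, out of 69599 regions in all, 39602 of them within 50 kb of a start site. Acsl1 and Acsl4 had 6 regions each, Acot11 had 5, Acot4 had 3, Acsl5 and Acot1 had 2 each, and Acsl6 had 1. Acsl3 and Acot2 had 0.

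The data were chromatin immunoprecipitation sequencing (ChIP-seq) with an antibody to TLE3 in primary mouse fat cells differentiated in culture. Stromal-vascular cells, the preadipocyte-containing fraction of fat, were isolated from male NMRI mice aged 4 to 5 weeks. The depots were epididymal white (eWAT), inguinal white (iWAT) and brown fat (BAT), the last from interscapular, cervical and axillary sites together. Tissue was pooled from 10 to 15 mice, and the labels name no genetic change in any group. All cultures received 30 nM insulin and 1 µM rosiglitazone, an agonist of the nuclear receptor PPARγ, were harvested on day 8, and were kept when over 50% of the culture had differentiated. They therefore also held cells that had not differentiated, and every group was measured in the presence of the agonist. Fixation used 2 mM disuccinimidyl glutarate for 15 min, then 1% formaldehyde for 30 min. There was 1 TLE3 library for each depot and 1 input library, made from iWAT adipocytes. With 1 library per depot, all comparisons are between libraries and not between depots, no p-value is given, and intervals cover counting error only.

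TLE3 is a corepressor of the Groucho family that does not bind a DNA sequence itself and is brought to chromatin by transcription factors. In adipocytes it is known as a partner of PPARγ that favours the white over the brown gene programme. Acyl-CoA synthetases join a long-chain fatty acid to coenzyme A, which commits it to triglyceride synthesis, membrane lipid or oxidation. Acyl-CoA thioesterases run the opposite reaction and release the free fatty acid, so the families together set the acyl-CoA pool of a fat cell.

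Values are scaled reads in a region of 230 bp, on the authors' scale, wherever a value carries no other unit. A read counted as 0.883, 0.526, 2.77 and 0.651 scaled reads in eWAT, iWAT, BAT and the input, so BAT was the shallowest library. If the common scale was 10 M reads, which is an assumption, BAT held 3.62 M reads, eWAT 11.3 M, iWAT 19.0 M and the input 15.4 M. A count of 0 allows up to 3 reads, or 8.30 scaled reads in BAT, 2.65 in eWAT, 1.58 in iWAT and 1.95 in the input. A region was listed for a depot only from 15 scaled reads upward and only from 10 times the input upward, limits inferred here from the values. A region entered the set by being listed in at least 1 depot, so a region listed in a single depot had to be high there. RNA was not measured in the data used here, and the labels were checked only by regions near marker genes. All 8 adipocyte markers and 6 of 7 brown adipocyte markers had a region, but so did 8 of 8 fibroblast, 5 of 6 macrophage, 4 of 4 endothelial, 4 of 4 mesothelial, 3 of 3 hepatocyte and 2 of 4 skeletal muscle markers. The presence of a region thus did not separate cell types, but its level differed at some markers. Relative to the median gene, 3 of 5 tested brown adipocyte markers were called higher in BAT against eWAT and 4 of 5 in BAT against iWAT. Among all 9099 tested genes, 1669 and 1988 were called higher in BAT in these comparisons. Such calls were not confined to brown markers. General adipocyte markers had 2 and 3 of 7 called higher and 0 lower. Fibroblast markers had 1 of 7 called higher in each comparison, with 2 and 3 lower. On the authors' scale only Cidea of the 5 tested brown markers had more signal in BAT, with 72.4 in eWAT, 96.2 in iWAT and 99.6 in BAT. In eWAT against iWAT, 3 of 3 tested macrophage markers were called higher and, of 7 tested fibroblast markers, 1 was higher and 3 were lower. Among the 9099 tested genes, 1356 were called higher and 1748 lower in that comparison. The part of other cell types in the member results was not tested.

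The members Acot1, Acot4 and Acsl1 carried TLE3 regions at or just before a start. The bases before these starts are shown because parts of these regions lay on them. Regions are given in mm9, the build of the files. The sequences are from RefSeq's promoter table on GRCm38.p6, 250 bases before the start, at chr12:84009252-84009501, chr12:84038129-84038378 and chr8:46490716-46490965, all on the + strand. The builds were joined only by distance from the start, and the spacing between the Acot1 and Acot4 starts was 28877 bp in both. The spacing between the upstream and downstream Acsl1 starts was 19929 bp in both. Capitals mark the bases inside the TLE3 region.
Acot1: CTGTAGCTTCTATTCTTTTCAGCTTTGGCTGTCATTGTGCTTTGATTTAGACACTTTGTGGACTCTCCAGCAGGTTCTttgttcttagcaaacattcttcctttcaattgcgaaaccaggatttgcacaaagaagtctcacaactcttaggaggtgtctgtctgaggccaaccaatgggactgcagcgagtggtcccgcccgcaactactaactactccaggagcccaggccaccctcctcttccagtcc
Acot4: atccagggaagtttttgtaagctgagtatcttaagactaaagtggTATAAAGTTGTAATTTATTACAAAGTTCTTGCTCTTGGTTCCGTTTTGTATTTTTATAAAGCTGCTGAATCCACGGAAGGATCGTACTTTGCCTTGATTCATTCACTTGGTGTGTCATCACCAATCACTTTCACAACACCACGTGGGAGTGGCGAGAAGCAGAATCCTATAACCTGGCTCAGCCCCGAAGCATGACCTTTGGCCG
Acsl1, downstream start: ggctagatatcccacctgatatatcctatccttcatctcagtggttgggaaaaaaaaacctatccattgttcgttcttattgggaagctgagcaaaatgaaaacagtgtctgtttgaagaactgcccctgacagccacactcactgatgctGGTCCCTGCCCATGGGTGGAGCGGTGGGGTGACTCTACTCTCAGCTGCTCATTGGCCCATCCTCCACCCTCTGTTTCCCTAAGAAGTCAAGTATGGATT

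The capitals cover positions −250 to −173 of Acot1, −205 to −1 of Acot4 and −99 to −1 of the downstream Acsl1 start. The rest of each 230 bp region lay outside the shown bases and was not searched for motifs. That rest was most of the Acot1 and Acsl1 regions. Motifs were searched on both strands of the 250 bases. The Acot1 stretch under the region held the TCF motif CTTTGAT at −211 to −205, which 3.21% of 32851 promoters of that length hold. The C/EBP motif TTGCNNAA lay at −143 to −136 and at −128 to −121 of Acot1, between the region and the start, and 9.56% of promoters hold it. In Acot4 a direct repeat of AGGTCA with a spacing of 1 base, the element bound by PPARγ with RXR, was matched with up to 2 mismatches by TGACCTTTGGCCG at −13 to −1, on the minus strand. This match, found in 3.24% of promoters, overlaps an exact AGGTCA hexamer at −13 to −8, which 14.0% of promoters hold. The Acsl1 stretch held the EBF palindrome CCCNNGGG at −91 to −84, found in 11.8% of promoters. No match was found in these 3 windows for the NFI motif TTGGCA or the RUNX motif TGTGGT, held by 12.3% and 14.0% of promoters. These are matches of letters and do not show binding.

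Of the 25 regions, 20 were listed in eWAT, 18 in iWAT and 8 in BAT. Those are 80.0%, 72% and 32.0% of the member regions, beside 76.5%, 69.8% and 22% of all regions within 50 kb of a start. All 3 depots listed 6 of the 25, exactly 2 depots listed 9, and a single depot listed 10. Those are 24%, 36% and 40% of the members, beside 15.9%, 36.4% and 47.7% of all regions within 50 kb. The 6 shared regions were both of Acot1, the Acot4 region 4.0 kb before the start, the Acsl1 region between its starts, the upstream Acsl5 region and the Acsl6 region. Of the 17 regions BAT did not list, 4 were only under 10 times the input, 4 were only under 15 scaled reads and 9 were under both. The median over the 25 regions was 43.3 in eWAT, 28.9 in iWAT and 13.8 in BAT, over an input of 1.95, beside 28.3, 26.8, 8.30 and 1.30 for all regions within 50 kb. The eWAT library was the highest of the 3 at 15 regions, iWAT at 7 and BAT at 3, or 60%, 28% and 12%, beside 54.4%, 39.4% and 6.23% of all regions within 50 kb. Regions lay within 1 kb of a start in 4 of 25 cases (16%, beside 5.30% of all regions within 50 kb) and within 5 kb in 9 (36.0%, beside 20.9%). By the deposited annotation 11 were intergenic, 10 intronic, 3 in a promoter and 1 in a 5′ untranslated exon.

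**Figure D1:**
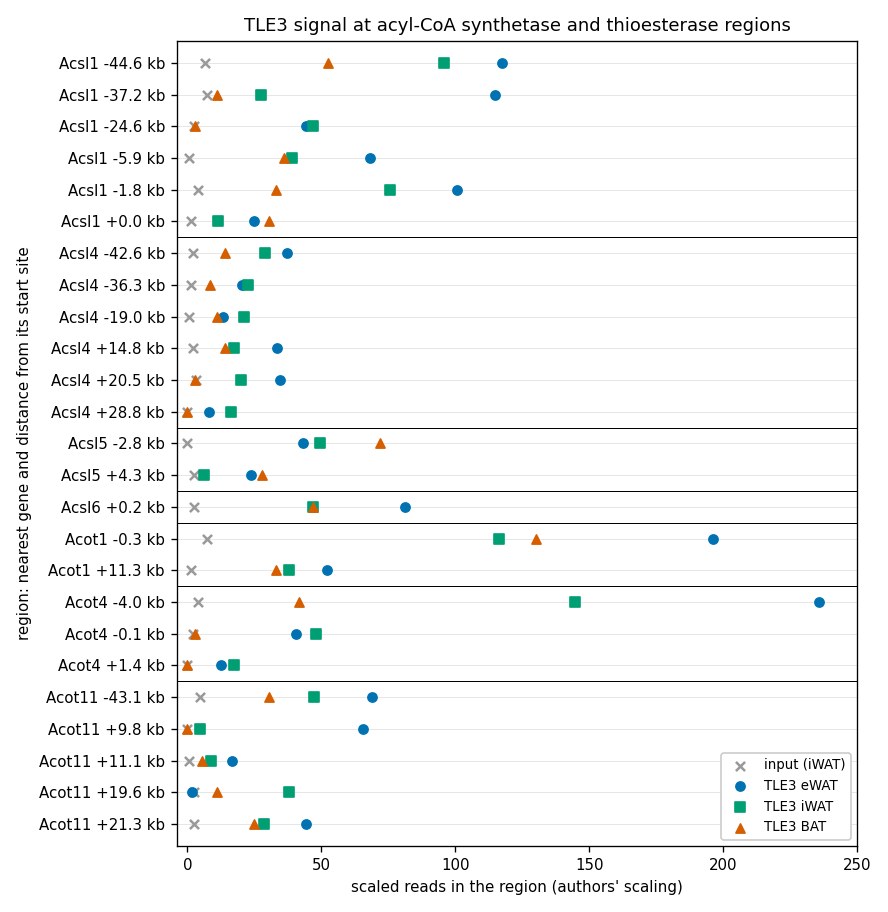
Scaled reads (x axis) in each of the 25 regions (rows, named by gene and distance from the nearest start in kb) in the input and the 3 TLE3 libraries, 1 library per point. Signal is highest near Acot1 and Acot4, at 196.0 and 235.8 scaled reads in eWAT, while both Acsl5 regions and the Acsl1 region on the downstream start have BAT as their highest library.

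Acsl1, the main long-chain synthetase of adipocytes, carried the most summed signal of the 7 genes. Its 6 regions summed to 469.8 in eWAT, 295.9 in iWAT and 165.9 in BAT, over an input of 22.1. The strongest lay 44.6 kb before the upstream start (chr8:47511714-47511944, intergenic), with 117.5 in eWAT, 95.6 in iWAT and 52.5 in BAT, over an input of 6.51. That value placed it at the 95.7th percentile of all 69599 regions by the mean of the 3 TLE3 libraries. BAT did not list it because it was under 10 times the input. The region 37.2 kb before the start (chr8:47519064-47519294, intergenic) had 114.8 in eWAT, 27.3 in iWAT and 11.1 in BAT, over an input of 7.16. Only eWAT listed this region, so it had to be high there. The neighbouring region at 44.6 kb was about as high in eWAT and high in iWAT as well. In reads, the regions at −37.2 and −44.6 kb had 130 and 133 in eWAT but 52 and 182 in iWAT. The eWAT to iWAT ratio was 3.41 times as high at the first as at the second (95% interval 2.27 to 5.17), a ratio of ratios in which the scaling between libraries cancels.

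Nearer the gene the pattern among libraries changed. The region 24.6 kb before the start (chr8:47531659-47531889, intergenic) had 44.2 in eWAT, 46.8 in iWAT and 2.77 in BAT, over an input of 2.60, so BAT was at 1 read. The region 1.8 kb before the upstream start (chr8:47554510-47554740, intergenic) had 100.7 in eWAT, 75.7 in iWAT and 33.2 in BAT, over an input of 3.90. In intron 1 of the long transcript, 5.9 kb before the downstream start (chr8:47570354-47570584, annotated to an L1MB4 repeat), values were 68.0 in eWAT, 38.9 in iWAT and 36.0 in BAT, over an input of 0.65. The region on the downstream start, shown above (chr8:47576221-47576451, promoter of the shorter transcript), had 24.7 in eWAT, 11.6 in iWAT and 30.4 in BAT, over an input of 1.30. It was the weakest Acsl1 region in the white depots, and the only 1 of the 6 whose highest library was BAT. The regions at the downstream and upstream starts had 11 and 12 reads in BAT but 22 and 144 in iWAT, so the BAT to iWAT ratio was 5.92 times as high at the downstream start (2.09 to 16.8).

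**Figure D2:**
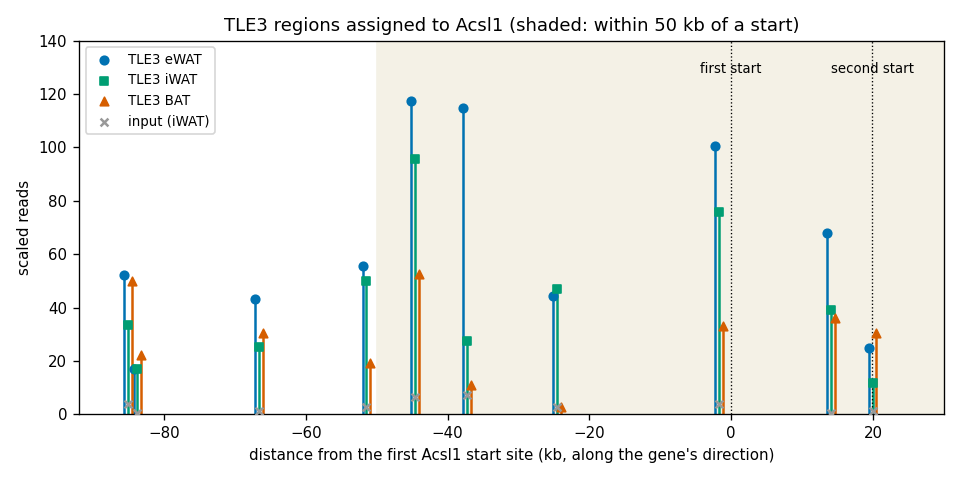
Scaled reads (y axis) at all 10 regions assigned to Acsl1 by distance from its upstream start in kb (x axis), with lines and points for the 3 TLE3 libraries set slightly apart and crosses for the input. The eWAT value at −37.2 kb (114.8) stands far above iWAT (27.3), and at the downstream start BAT (30.4) exceeds eWAT (24.7) and iWAT (11.6), as it also does at −83.8 kb (22.1, 16.8 and 16.8).

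Acsl5, a synthetase of mitochondrial and endoplasmic reticulum membranes, was the member with the most BAT signal relative to eWAT. The region 2.8 kb before its start (chr19:55324982-55325212, intergenic) had 43.3 in eWAT, 49.4 in iWAT and 71.9 in BAT, over an input of 0. BAT was the highest library and placed it at the 97.6th percentile of all regions by the BAT value, against the 71.1st by the eWAT value. The region in intron 1, 4.3 kb after the start (chr19:55332067-55332297, annotated to an MIR repeat), had 23.8 in eWAT, 6.31 in iWAT and 27.7 in BAT, over an input of 2.60. Only BAT listed it, since eWAT was under 10 times the input, and iWAT was the lowest library. Summed over both regions, Acsl5 had 67.1 in eWAT, 55.7 in iWAT and 99.6 in BAT, over an input of 2.60. Its reads were 36 in BAT and 76 in eWAT beside 60 and 532 at Acsl1, so the BAT to eWAT ratio was 4.19 times that of Acsl1 (2.51 to 6.93). The Acsl5 sum holds a region that only BAT listed, and the Acsl1 sum one that only eWAT listed, so selection widens this contrast. Each gene had 1 region listed in all 3 depots. With only those, the log2 ratio of BAT against eWAT relative to the median gene was 1.55 at Acsl5 and −0.11 at Acsl1.

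Acsl4, which prefers arachidonic acid and other polyunsaturated fatty acids, had as many regions as Acsl1 but weak ones. They summed to 146.6 in eWAT, 126.1 in iWAT and 49.8 in BAT, over an input of 9.10. Values per region ran from 7.95 to 37.1 in eWAT, from 16.3 to 28.9 in iWAT and from 0 to 13.8 in BAT, and BAT listed 0 of the 6. The strongest lay 42.6 kb before the start (chrX:138867542-138867772, intergenic), with 37.1 in eWAT, 28.9 in iWAT and 13.8 in BAT, over an input of 1.95. The nearest lay 14.8 kb after the start in an intron (chrX:138810121-138810351), with 33.6 in eWAT, 17.3 in iWAT and 13.8 in BAT, over an input of 1.95. Acsl6, a synthetase best known from brain, had a single region in its 5′ untranslated exon 1, 0.2 kb after the start (chr11:54128471-54128701). It had 81.2 in eWAT, 46.8 in iWAT and 47.0 in BAT, over an input of 2.60, and all 3 depots listed it. Its iWAT and BAT values were alike on the authors' scale and eWAT was higher.

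Acsl3, a synthetase of the endoplasmic reticulum and lipid droplets, had no region assigned. In the RefSeq gene table (GRCm38.p6, used for neighbours only) it overlaps Utp14b, whose 7 regions within 50 kb summed to 186.3 in eWAT, 247.5 in iWAT and 130.0 in BAT. The nearest-start rule gives each region to 1 gene, so signal inside Acsl3 can be counted for Utp14b. Kcne4 on the other side had 10 regions within 50 kb. Acot2, the mitochondrial thioesterase that lies next to Acot1, also had none. Its neighbours Riox1 and Heatr4 had 0 regions as well, and on the other side lay Acot1 with the regions described next.

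Acot1, a cytosolic thioesterase known as a target of the fatty acid receptor PPARα, carried the strongest member region in BAT and, by the mean of the 3 libraries, of all 25. The region, centred 288 bp before the start (chr12:85350049-85350279, promoter), had 196.0 in eWAT, 116.1 in iWAT and 130.0 in BAT, over an input of 7.16. It stood at the 99.4th percentile of all regions in BAT. A weaker region 11.3 kb after the start (chr12:85361664-85361894, intergenic) had 52.1 in eWAT, 37.8 in iWAT and 33.2 in BAT, over an input of 1.30. Both were listed in all 3 depots. The 250 bases before the Acot1 and Acot2 starts aligned with 46.7% identity, and no pair of starts from different genes compared here exceeded 53.3%. The 250 bases before these starts were therefore distinct in sequence, but they hold only part of the Acot1 region. Coding parts of the Acot cluster genes can be close copies among which reads are assigned wrongly, and they were not compared here. The treatment of such reads is not stated in the sources used here.

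Acot4, a peroxisomal thioesterase that lies 28.9 kb further along the cluster, had the highest member value of all in eWAT and iWAT. Its region 4.0 kb before the start (chr12:85375190-85375420, intergenic) had 235.8 in eWAT, 144.5 in iWAT and 41.5 in BAT, over an input of 3.90. On the authors' scale the white libraries were far above BAT here, which the Acot1 promoter did not show. The reads were 267 in eWAT, 275 in iWAT and 15 in BAT, beside 222, 221 and 47 at the Acot1 promoter. The BAT to eWAT ratio was 3.76 times as high at the Acot1 promoter as at this region (2.00 to 7.44), and the BAT to iWAT ratio 3.89 times as high (2.07 to 7.70).

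The Acot4 promoter region shown above (chr12:85379124-85379354) had 40.6 in eWAT, 47.8 in iWAT and 2.77 in BAT, over an input of 1.95. Its BAT value was 1 read, 1.42 times the input. A region in the intron 1.4 kb after the start (chr12:85380592-85380822), annotated to an MMETn long terminal repeat, had 12.4 in eWAT, 17.3 in iWAT and 0 reads in BAT and in the input. Reads from such a repeat can be assigned to the wrong copy. On the authors' scale the white libraries thus stood above BAT at all 3 Acot4 regions. On that scale BAT was the highest library at only 6.23% of all regions within 50 kb. The BAT value at 4.0 kb was itself at the 92.6th percentile of all regions, and a count of 0 in BAT allows up to 8.30.

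The Acot genes of chromosome 12 lie in a row, and 10 TLE3 regions were assigned to 5 of them over 91.2 kb, with no region of another gene between. They summed to 764.7 in eWAT, 512.4 in iWAT and 287.6 in BAT, over an input of 22.8. Besides Acot1 and Acot4, the peroxisomal Acot3 had 3 regions, of which the strongest, 1.1 kb after the start in a 5′ untranslated exon, had 91.8 in eWAT, 51.5 in iWAT and 33.2 in BAT. The Acot5 promoter region had 48.6 in eWAT, 35.7 in iWAT and 8.30 in BAT, and that of Acot6 had 30.9, 15.2 and 5.53. Regions annotated as promoter thus stood at 4 of these 5 genes, all but Acot3.

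**Figure D3:**
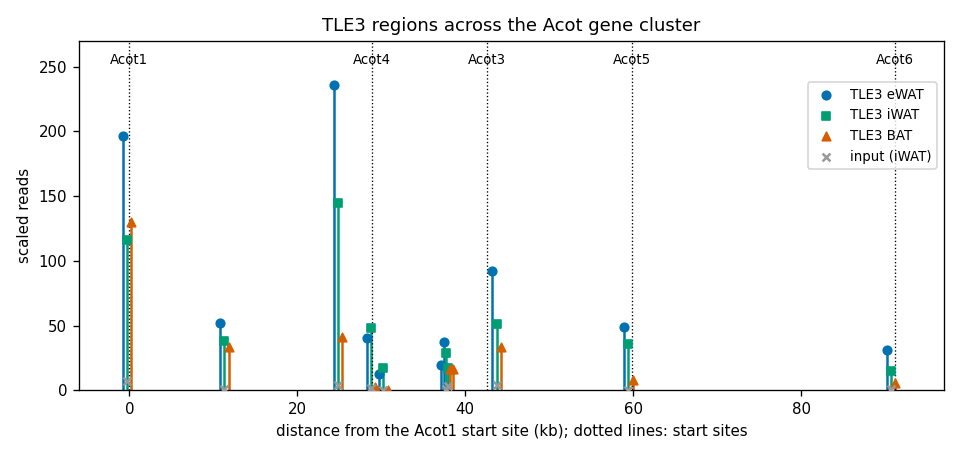
Scaled reads (y axis) at the 10 regions of the Acot cluster by distance from the Acot1 start in kb (x axis), with lines and points for the 3 TLE3 libraries set slightly apart, crosses for the input and dotted lines at the start sites. BAT has its highest value at the Acot1 promoter (130.0), followed by the Acot4 region at 4.0 kb before the start (41.5), where eWAT (235.8) and iWAT (144.5) are far higher.

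Acot11, a thioesterase that brown fat induces in the cold and that restrains heat production, had 5 regions, and its intronic regions differed in opposite directions between the white libraries. The region 9.8 kb after the start (chr4:106462486-106462716) had 65.4 in eWAT, 4.73 in iWAT and 0 reads in BAT and in the input. The region 19.6 kb after the start (chr4:106452726-106452956) had 1.77 in eWAT, 37.8 in iWAT and 11.1 in BAT, over an input of 2.60. Each was low in the white library where the other was high. The first was listed in eWAT alone and the second in iWAT alone, so each entered the set by being high there.

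The intronic neighbours of these regions did not share the difference. At 11.1 kb after the start (chr4:106461231-106461461) values were 16.8 in eWAT, 8.93 in iWAT and 5.53 in BAT, over an input of 0.65. At 21.3 kb after the start (chr4:106451053-106451283) they were 44.2 in eWAT, 28.4 in iWAT and 24.9 in BAT, over an input of 2.60. The eWAT to iWAT ratio of reads was 7.20 times as high at 9.8 kb as at 11.1 kb, where the reads were 74 to 9 and 19 to 17 (2.58 to 21.5). It was 32.8 times as high at 21.3 kb as at 19.6 kb, where they were 50 to 54 and 2 to 72 (8.01 to 290.3). The remaining region, 43.1 kb before the start (chr4:106520554-106520784, intergenic), was the strongest by the mean, with 68.9 in eWAT, 47.3 in iWAT and 30.4 in BAT, over an input of 4.56. Summed, Acot11 had 196.9 in eWAT, 127.2 in iWAT and 71.9 in BAT, over an input of 10.4. BAT listed 0 of the 5 regions. The 7 ratios of ratios given for Acsl1, Acsl5, Acot1, Acot4 and Acot11 were chosen after the values were seen and are descriptions.

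For library against library, each region's log2 ratio was taken relative to the median ratio of the strongest 25% of all regions, and a region was called when it differed at least 2-fold with its exact 95% interval off 0. In eWAT against iWAT, 3 member regions of 25 were called higher in eWAT, where 16.4% of all regions were, and 2 lower, where 24.1% were. The higher ones were Acot11 at +9.8 kb (log2 ratio 3.66, interval 2.65 to 4.84), Acsl1 at −37.2 kb (1.94, 1.46 to 2.43) and the intronic Acsl5 region (1.79, 0.76 to 2.90). The lower ones were Acot11 at +19.6 kb (−4.55, −7.63 to −2.65) and Acsl4 at +28.8 kb (−1.17, −2.42 to −0.06), the latter with 7.95 in eWAT, 16.3 in iWAT and 0 in BAT. Each of these called regions was listed in a single depot. That depot was BAT for the intronic Acsl5 region. For the others it was the library with the higher value, so they entered the set by being high there. On the authors' scale, where the median over all regions was 0.10, the split was 4 higher and 1 lower. The other 20 were not called, and the median over the 25 was 0.41 beside −0.04 over all regions. The shares called were thus near or below those of all regions.

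BAT directions depend on the scale, because the strongest regions had 0.376 times as many scaled reads in BAT as in eWAT and 0.365 times as many as in iWAT. In BAT against eWAT, 4 of 25 were called higher in BAT, where 10.8% of all regions were, and 4 lower, where 6.58% were. Higher were the upstream Acsl5 region (2.14, 1.40 to 2.86), the intronic Acsl5 region (1.63, 0.41 to 2.72), the Acsl1 region on the downstream start (1.71, 0.56 to 2.76) and Acot11 at +19.6 kb (4.06, 1.26 to 7.53, from 4 reads against 2). On the authors' scale all 4 had more scaled reads in BAT than in eWAT but none was called. Lower were Acot4 at −4.0 kb (−1.09, −1.95 to −0.35), Acsl1 at −37.2 kb (−1.96, −3.86 to −0.57), Acsl1 at −24.6 kb (−2.58, −7.92 to −0.04, from 1 read in BAT) and Acot11 at +9.8 kb, with 0 reads in BAT. For the last, 3 reads in place of 0 gave a log2 ratio of −1.57, and the upper limit of the interval was −1.23. These 4 were called lower on the authors' scale too. Only eWAT listed Acsl1 at −37.2 kb and Acot11 at +9.8 kb, and only BAT listed the intronic Acsl5 region. Each of these entered the set by being high in that library, so its direction here was partly built in. The split of calls moved from 4 higher and 4 lower to 0 higher and 10 lower on the authors' scale. On that scale the median log2 ratio over all regions was itself −1.35. With the scale set by the regions listed in all 3 depots the split was 2 higher and 6 lower, beside a median of −0.61 over all regions. The calls for the intronic Acsl5 region and the downstream Acsl1 start were then lost. The share of all regions called was not counted on either scale, so the splits there are not results about the members. Relative to the strongest regions, the median over the 25 was 0.25, beside 0.06 over all regions, so the members as a whole lay near the rest while single regions moved to either side.

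In BAT against iWAT, 8 of 25 were called higher in BAT, where 11.7% of all regions were, and 2 lower, where 6.93% were. The largest ratios were at the intronic Acsl5 region (3.59, 2.22 to 4.92), the Acsl1 downstream start (2.85, 1.66 to 3.96), the upstream Acsl5 region (2.00, 1.31 to 2.64) and the Acot1 promoter (1.62, 1.13 to 2.08). The Acsl6 region (1.46, 0.62 to 2.22) and the Acsl1 region between the starts (1.34, 0.37 to 2.20) followed. Acot1 at +11.3 kb (1.27, 0.25 to 2.16) and Acot11 at +21.3 kb (1.27, 0.06 to 2.30) completed them. On the authors' scale the Acsl1 region between the starts, Acot1 at +11.3 kb and Acot11 at +21.3 kb turned to −0.11, −0.19 and −0.19. Lower were the Acot4 promoter (−2.66, −7.98 to −0.14) and Acsl1 at −24.6 kb (−2.62, −7.94 to −0.11), each with 1 read in BAT. The intronic Acsl5 region was listed in BAT alone, so it entered the set by being high there. BAT and eWAT but not iWAT listed the downstream Acsl1 start, and both lower regions were listed in the white depots only. Acot4 at −4.0 kb was not called (−0.35, −1.20 to 0.40), but was called lower on the authors' scale (−1.80). The median over the 25 was 0.59, beside 0.06 over all regions. The split of 8 higher and 2 lower became 2 higher and 7 lower on the authors' scale, the higher ones being the intronic Acsl5 region and the downstream Acsl1 start. On that scale the median over all regions was −1.4. With the scale set by the regions listed in all 3 depots the split was 3 higher and 3 lower, beside a median of −0.74 over all regions. The share of all regions called was not counted on either scale.

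Per gene, reads were summed over its regions and the log2 ratio was taken relative to the median gene, which on the authors' scale lay at 0.16 in eWAT against iWAT, −1.54 in BAT against eWAT and −1.49 in BAT against iWAT. A gene was called at 1.5-fold with its interval off 0. In eWAT against iWAT 1 of the 7 genes was called, Acsl6 (0.63, 0.20 to 1.07), where 34.1% of 9099 genes were called in either direction. Acsl1 (0.50, 0.33 to 0.68), Acot1 (0.53, 0.28 to 0.77), Acot11 (0.47, 0.20 to 0.74) and Acot4 (0.30, 0.08 to 0.51) had intervals above 0 but were under 1.5-fold. Acsl4 (0.05, −0.24 to 0.35) and Acsl5 (0.11, −0.34 to 0.54) had intervals that included 0. The median over the 7 was 0.47, and 4 genes were called on the authors' scale.

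In BAT against eWAT 3 of 7 genes were called, where 34.1% of genes were. Acsl5 was higher in BAT (2.11, 1.49 to 2.70, and 0.57 on the authors' scale) and Acot4 was lower (−1.17, −1.99 to −0.45, and −2.71 on the authors' scale). Acot1 was called higher (0.93, 0.50 to 1.34) but turned to −0.60 on the authors' scale. Acsl6 was at 0.75 (−0.09 to 1.5), Acot11 at 0.08 (−0.56 to 0.67), Acsl1 at 0.04 (−0.37 to 0.42) and Acsl4 at −0.02 (−0.81 to 0.68), all with intervals that included 0. On the authors' scale, where the median gene lay at −1.54, 6 of the 7 genes were called, all lower in BAT, and Acsl5 lost its call. Acsl4 (−1.56), Acsl1 (−1.50), Acot11 (−1.45) and Acsl6 (−0.79) were then among those lower.

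In BAT against iWAT 6 of 7 were called, where 37.3% of genes were, and the median over the 7 was 0.67. They were Acsl5 (2.33, 1.74 to 2.88), Acot1 (1.57, 1.14 to 1.98), Acsl6 (1.5, 0.65 to 2.26), Acot11 (0.67, 0.02 to 1.25) and Acsl1 (0.65, 0.25 to 1.04), higher in BAT, and Acot4 (−0.76, −1.58 to −0.04), lower. On the authors' scale Acsl5 (0.84) and Acot4 (−2.24) kept their direction, Acot1 (0.08) and Acsl6 (0.01) lay near 0, and Acsl1 (−0.83) and Acot11 (−0.82) turned. Acsl4, at 0.15 (−0.63 to 0.84) relative to the median gene, was called lower on the authors' scale (−1.34). The split of calls thus went from 5 higher and 1 lower to 1 higher and 4 lower, where the median gene lay at −1.49. The share of all genes called on the authors' scale was not counted in any comparison. The 3 comparisons share libraries and are not independent. With sums over the regions listed in all 3 depots, 3 genes were called here and 2 in eWAT against iWAT, a sum that only 5 of the 7 genes have.

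**Figure D4:**
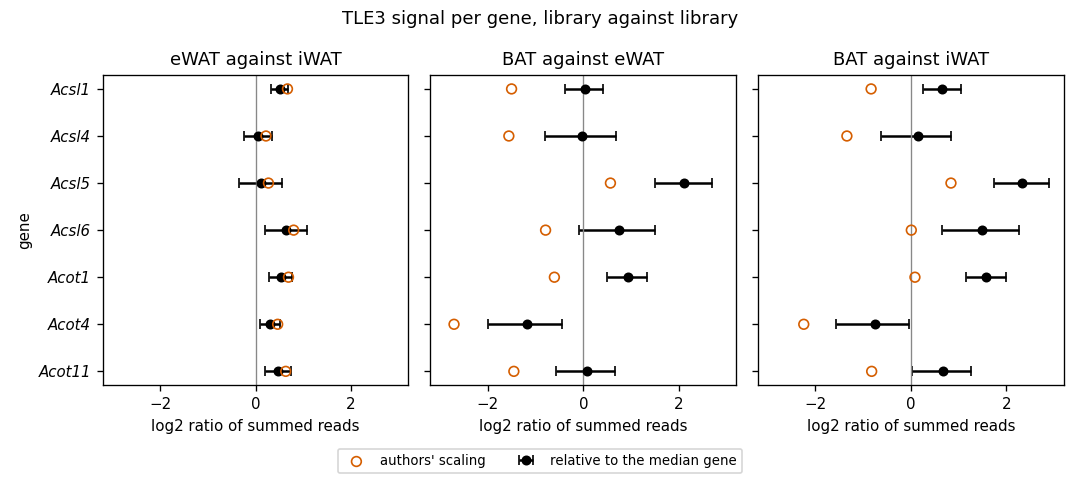
Log2 ratio of summed TLE3 reads per gene (x axis; rows are the 7 genes with a region) in 3 library pairs, with black points relative to the median gene, bars for exact 95% intervals of counting error and open circles on the authors' scale. In both BAT panels Acsl5 lies above 0 and Acot4 below 0 on either scale, while several other genes change side between the scales, among them Acsl1 and Acot11 against iWAT and Acot1 against eWAT.

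By summed signal the order in eWAT was Acsl1, Acot4, Acot1, Acot11, Acsl4, Acsl6 and Acsl5, and sums also grow with the number of regions. In BAT the order was Acsl1, Acot1, Acsl5, Acot11, Acsl4, Acsl6 and Acot4. Acsl1 and Acot1 there rested on 60 and 59 reads, and Acsl4, Acsl6 and Acot4 on 18, 17 and 16, differences within counting error. Acot4 thus went from the second place to the last, and Acsl5 from the last to the third. All sums lay above the input. However, a region entered the set only if some depot reached a set multiple of this same input. High ratios in a listing depot were thus built in by selection. The ratios to the input are descriptions and do not test enrichment. In eWAT the ratio to the input ran from 16.1 (9.33 to 30.1) at Acsl4 to 49.3 (25.7 to 108.8) at Acot4, and in BAT from 5.47 (2.57 to 11.9) at Acsl4 to 38.3 (13.7 to 148.0) at Acsl5. The input came from iWAT, so input differences of the other depots were not measured.

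The rest of the acyl-CoA pathway gave a background for these genes. A region within 50 kb was assigned to 13 of 19 other acyl-CoA synthetases, 12 of 16 other thioesterases, 17 of 26 genes of acyl-CoA binding, carnitine transfer and β-oxidation, 13 of 16 genes that use acyl-CoA for glycerolipids and 4 of 9 genes of coenzyme A metabolism. Among all 21896 protein-coding genes it was 50.1%, and among the members 7 of 9. BAT listed a region at 5 of the 9 members, at 5 of the 19 other synthetases, at 2 of the 16 other thioesterases at 10 of the 26 β-oxidation genes, at 9 of the 16 glycerolipid genes and at 2 of the 9 coenzyme A genes, beside 20.8% of all protein-coding genes. Genes with longer stretches free of other starts can gather more regions.

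In BAT against eWAT, the 6 other synthetases with enough signal held 1 called higher, Acsbg1 (1.85), and 0 lower. The 6 other thioesterases held 1 higher, Acot13 (1.06), and 1 lower, Olah, with 0 reads in BAT. At Olah, 3 reads in place of 0 gave a log2 ratio of −1.89, and the upper limit of the interval was −1.56. The 12 β-oxidation genes held 3 higher, namely Acadl (1.00), an acyl-CoA dehydrogenase, Hadha (1.47), a subunit of the mitochondrial trifunctional protein, and the peroxisomal thiolase Acaa1b (1.07). They held 1 lower, Hadh (−1.53), a mitochondrial dehydrogenase of the same pathway. The 12 glycerolipid genes held 1 higher, Agpat9 (1.01), and the 3 coenzyme A genes 0. Among all 9099 tested genes, 1669 were called higher and 1435 lower. The median gene's shift of −1.54 on the authors' scale is larger in size than the ratios of Acot13, Acadl, Hadha, Acaa1b and Agpat9, so these lie below 0 on that scale, while Acsbg1 stays above. Acsl5 (2.11) was thus higher than every tested pathway gene in this comparison, and Hadh and Olah were the tested pathway genes called lower, as Acot4 was. In eWAT against iWAT the called pathway genes included fatty acid synthase, Fasn (0.68), which carries a thioesterase domain and was higher in eWAT. Mogat1 (−0.91), a monoacylglycerol acyltransferase, and Acot12 (−1.04) were lower.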

How the data were processed

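The deposited values are a signal, reads in each 230 bp region scaled by the authors to a common total per library, per the file headers. STAR, HOMER and mm9 are named, without role or version, in the submitters' processing notes; the peak caller and its control are not stated in the sources used here. The deposited peak score was 0 for every region, per the file headers and values, and was not used. The 3 lists were joined by region name, and all value columns matched a sample (0 did not). Values were whole multiples of a step in each library (100% within 0.1 read), so reads were recovered by division.

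Members, gene lists and motifs were chosen with earlier results of these data known. Ratios of reads carry exact Clopper-Pearson 95% intervals (scipy 1.17.1), which compare libraries. Regions were called at 2-fold and genes at 1.5-fold with intervals off 0, and genes needed a mean of 30 scaled reads. Ratios of ratios carry exact conditional intervals. The calling was run on simulated reads with 200 changed regions. Those reads carried counting error only, the error that the intervals assume, so variation between replicate libraries was not tested. By the rule for names, all 9 genes are given with their number of regions, and each gene's strongest region, its nearest region and every called region are given in full. Alternatives changed the scaling, window, filter, call rule and summed regions. Promoter sequences were matched by symbol and start, and Acsl6 starts could not be matched. The genome itself was not used, so no region sequence is shown.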

Additional observations from a re-analysis of the deposited data

How the results depend on the processing

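Of the 48 counts recomputed under an alternative, 36 stayed within 1.5 times the main count. Counts of calls hold both directions together, so some stayed while their split turned. On the authors' scaling, region calls in BAT against iWAT went from 8 higher and 2 lower to 2 higher and 7 lower. Gene calls there went from 5 higher and 1 lower to 1 higher and 4 lower. Region calls in BAT against eWAT went from 4 higher and 4 lower to 0 higher and 10 lower. With an exact binomial test adjusted over all regions and no fold limit, called member regions went from 5 to 10 in eWAT against iWAT and from 10 to 6 in BAT against iWAT. Scaling by the regions listed in all 3 depots also gave 6 in BAT against iWAT. Within 10 kb of a start, where fewer regions enter, the called regions were 2 in eWAT against iWAT and 5 in BAT against eWAT, 0 genes were called in eWAT against iWAT, and eWAT listed 9 and iWAT 8 member regions. On the authors' scaling, 4 genes were called in eWAT against iWAT and 6 in BAT against eWAT. The median gene lay at 0.16 and −1.54 in these comparisons on that scaling. With sums over the regions listed in all 3 depots, which leave fewer genes, 2 genes were called in eWAT against iWAT and 3 in BAT against iWAT. The authors' scaling reversed Acot1 in BAT against eWAT (−0.60), and in BAT against iWAT it reversed Acsl1 (−0.83), Acot11 (−0.82), the Acot1 region at +11.3 kb (−0.19), the Acot11 region at +21.3 kb (−0.19) and the Acsl1 region 5.9 kb before its downstream start (−0.11). No other alternative reversed a called gene or region of the 9 members. Leaving out a replicate was not possible, since each depot has 1 library, and no paired analysis was possible because the groups hold 1 sample each. In BAT, 17 of 25 regions were unlisted and a listed region could rest on 6 reads, so absence from the BAT list was not separable from its depth.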

Other observations

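Beyond the 50 kb window, 6 further regions had Acsl1 or Acsl4 as the nearest gene. For Acsl1 they lay 51.4, 66.6, 83.8 and 85.1 kb before the upstream start. The region at −85.1 kb had 52.1 in eWAT, 33.6 in iWAT and 49.8 in BAT, over an input of 3.90, and BAT listed it together with eWAT. The region at −66.6 kb had 43.3, 25.2 and 30.4, and that at −83.8 kb had 16.8, 16.8 and 22.1, and all 3 depots listed both. The region at −51.4 kb had 55.6, 49.9 and 19.4 and was not listed in BAT. BAT listed 3 of the 4 distant Acsl1 regions, beside 2 of the 6 nearer ones and 21.6% of all regions. These are few regions, the one at −83.8 kb had 8 reads in BAT, and a difference by distance was not tested.

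For Acsl4 the distant regions lay 91.2 and 99.7 kb before the start. That at −91.2 kb had 38.9 in eWAT, 85.7 in iWAT and 33.2 in BAT, over an input of 0.65, and was listed in all 3 depots. That at −99.7 kb had 35.3, 31.5 and 2.77. The region at −91.2 kb was higher in every TLE3 library than the strongest of the 6 Acsl4 regions within 50 kb.

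The genes with TLE3 ratios most like Acsl1 over the 3 libraries, among 4013 genes whose 3 libraries averaged 100 scaled reads or more, were E430016F16Rik, Ccdc182, Ankrd33b, Kdm4b and Rnf214, by the Euclidean distance over the log2 ratios of eWAT against iWAT and BAT against eWAT (0.025 to 0.040). Those most like Acsl5 were Gm29508, Pak4, 1700049E22Rik, Cryaa and Tob1 (0.054 to 0.11). Over 3 libraries such likeness is a description only.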
